A study of Mus musculus with 29 samples.

Results

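The protein-folding stress genes of mouse microglia were followed here through a first and a repeated LPS challenge, with and without replacement of the cells in between. The 35 genes were taken by name from the 36982 genes of the count table, and each had exactly 1 row. They fall into 15 cytosolic and mitochondrial chaperone and heat shock genes and 20 endoplasmic reticulum (ER) stress genes, which are reported apart. The rule that selects them uses gene symbols only and no measured value, although the list was chosen with earlier results of these data known.

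Microglia, the resident macrophages of the brain, came from male C57BL/6J mice injected intraperitoneally at 10 weeks of age and again 5 weeks later. Both times the injection held either saline (P) or LPS (lipopolysaccharide, L) at 1 mg/kg, an Escherichia coli cell wall component that activates Toll-like receptor 4. Beginning 1 week after the first injection, depleted mice (B) were gavaged with the CSF1R inhibitor BLZ945 at 169 mg/kg per day for 5 days, and all others with vehicle. BLZ945 is also known as sotuletinib, and the receptor it blocks is needed for microglial survival. New microglia then refilled the brain before the second injection. Brains were taken at 15 weeks of age, 3 h after the second injection, and all groups spent those hours in warming cabinets, per the labels. PP mice (n = 5) had saline, vehicle and saline. PBP mice (n = 5) had saline, BLZ945 and saline. PL mice (n = 4) had saline, vehicle and LPS, and PBL mice (n = 5) had saline, BLZ945 and LPS. LL mice (n = 5) had LPS, vehicle and LPS, and LBL mice (n = 5) had LPS, BLZ945 and LPS. The sort gate took live single cells, CD11b high, CD45 intermediate and Ly6C negative, and polyadenylated RNA was sequenced, 1 library per sample. Nothing in the labels says more about the animals behind a library, and p-values here describe variation among samples, part of which may be technical.

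Cells answer misfolded protein differently in different compartments. In the cytosol, the transcription factor HSF1 raises genes of the HSP70, HSP90 and HSP40 chaperone families. In the ER, the unfolded protein response runs through 3 sensors. PERK (Eif2ak3) phosphorylates eIF2α, which slows translation and favours ATF4. IRE1α (Ern1) splices Xbp1 mRNA, and ATF6 is cut to release a transcription factor. Together they raise ER chaperones, protein disulfide isomerases and the ER-associated degradation (ERAD) genes that clear misfolded protein. Macrophages sensing LPS are known to use parts of this machinery, including XBP1 and ATF4, without a full ER stress response. Gene-level counts show neither the splicing of Xbp1 nor the translation of Atf4.

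The libraries held 5670450 to 12671476 counts (median 7597841). Levels are given as CPM, counts scaled to library size with TMM factors. A gene was called where edgeR's quasi-likelihood test, fitted to all 29 libraries and 16632 genes, gave a Benjamini-Hochberg adjusted p under 0.05. Of the 35 members, 33 passed the filter on low counts. Hspa1b and Hspb1 did not, with at most 2.31 and 1.29 CPM in any library. Sorters and sorting days nearly coincide with the groups. All PP and PL libraries and 4 of the 5 PBP libraries were sorted on a MoFlo Astrios, whereas PBP replicate 5 and all PBL, LL and LBL libraries were sorted on a MoFlo XDP. PBP replicate 5 shared its sorting day with all 5 PBL libraries. The 10 microglia markers were all detected in every group, with a summed level of 34000 to 73400 CPM. Their median sum was 67900 CPM in PP, 49200 in PL, 66500 in PBP and 41800 in PBL, and 7 of the 10 were called lower in PL against PP and 9 in PBL against PBP. The 10 astrocyte markers had median sums of 511, 788, 422 and 778 CPM in these groups, with 1 called higher in PL against PP and 7 in PBL against PBP. The part of these shifts in the results was not tested. Sums over 11 neuron markers were 12 to 53.4 CPM in Astrios libraries and 54.6 to 246 in XDP libraries. Neutrophil markers summed to 125 to 476 CPM in PBL against at most 35.1 elsewhere, and all 7 were called higher in PBL than in PBP. The sum of 16 immediate early genes, which are known to respond to cell handling as well as to LPS, was 740 to 4170 CPM in PP and PBP, 5450 to 10900 in PL and PBL, and 2900 to 7150 in LL and LBL.

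PBP replicate 2 stood apart in the genes studied here. It was the highest of all 29 libraries in 7 of the 13 tested cytosolic members and in 6 of the 20 ER members. The share over all tested genes was not counted, so this trait is not shown to be particular to the members. Its ratio to the median of the other PBP libraries had a median of 1.84 over the 13 cytosolic members, with 14.5 for Hspa1a, 3.15 for Hsph1 and 2.58 for Hsp90ab1, and a median of 1.18 over the ER members. For some of the results that rest on PBP, values without this library or without replicate 5 are also given.

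The promoters of the members carry the known binding elements of the ER stress pathway unevenly, so those with a match are shown before the values. RefSeq windows of the mouse build GRCm38.p6, from 250 bases before to 50 bases after each start, were found for 30 members, and both strands were searched. The ER stress element (ERSE, the letters CCAAT and CCACG with any 9 bases between them), bound by ATF6 and XBP1 with NF-Y, lay in the windows of 6 of 19 ER members and of 0 of 11 cytosolic members. Among all 32851 windows of this length, 0.119% held it. Its copies are in capitals in the following stretches, written 5′ to 3′ along the gene's strand, and all 6 genes encode chaperones or folding enzymes of the ER lumen or membrane.
Hspa5, chr2:34772000-34772068, plus strand: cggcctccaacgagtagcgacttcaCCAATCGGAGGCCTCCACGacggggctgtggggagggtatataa
Hsp90b1, chr10:86705508-86705681, minus strand: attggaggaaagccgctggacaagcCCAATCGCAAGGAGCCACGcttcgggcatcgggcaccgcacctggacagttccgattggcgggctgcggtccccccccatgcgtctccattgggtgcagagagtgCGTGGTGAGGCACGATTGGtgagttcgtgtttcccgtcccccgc
Calr, chr8:84847050-84847118, minus strand: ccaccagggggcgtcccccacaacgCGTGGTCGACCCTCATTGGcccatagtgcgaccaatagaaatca
Canx, chr11:50325775-50325843, minus strand: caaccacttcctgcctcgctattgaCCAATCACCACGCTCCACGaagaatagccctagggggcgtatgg
Pdia6, chr12:17266466-17266534, plus strand: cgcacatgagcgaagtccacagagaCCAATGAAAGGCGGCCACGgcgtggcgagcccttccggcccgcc
Dnajc3, chr14:118937802-118937870, plus strand: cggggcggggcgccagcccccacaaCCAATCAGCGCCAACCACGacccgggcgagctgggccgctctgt
Herpud1 and Ppp1r15a, the members that were lower after an earlier LPS injection in both arms, held other elements. The Herpud1 window had the compact ERSE-II (ATTGG and CCACG with any 1 base between them, 0.0365% of all windows) and the core of the element bound by ATF4 with C/EBP factors (TTGCATCA, 0.895% of windows). The Ppp1r15a window had a cyclic AMP response element (TGACGTCA, 1.79% of windows). These are in capitals here.
Herpud1, chr8:94386292-94386412, plus strand: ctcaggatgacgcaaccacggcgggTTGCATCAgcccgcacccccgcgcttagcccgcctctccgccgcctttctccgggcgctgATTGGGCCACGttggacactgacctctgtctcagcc
Ppp1r15a, chr7:45526269-45526305, minus strand: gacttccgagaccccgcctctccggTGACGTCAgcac
A run of heat shock element units (GAA, TTC and GAA with any 2 bases between neighbours, 0.603% of windows) was found for 3 of 11 cytosolic members, Hspd1, Hspe1 and Hsph1. Hspd1 and Hspe1 share 1 bidirectional promoter and so the same stretch, in which overlapping copies on both strands are in capitals. In Hsph1 the match lay after the start.
Hspe1, chr1:55088034-55088101, plus strand: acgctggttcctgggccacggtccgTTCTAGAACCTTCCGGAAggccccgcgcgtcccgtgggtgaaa
The XBP1-type core TGACGTGG was in no member's window and in 0.676% of all windows. These matches describe letters in a window and were not tested for binding.

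A first LPS injection raised Atf4, Xbp1, Atf6, Ppp1r15a, Herpud1 and, narrowly, Ddit3 in both arms and lowered Eif2ak3 and Edem1. No ER chaperone was called higher in the main fit (edgeR, TMM, all libraries), although Hspa5 came close in undepleted mice. In undepleted mice (PL against PP), 6 of the 20 ER members were higher and 2 lower, and 4 of the 13 cytosolic members were higher and 0 lower, where 14.2% of all tested genes were higher and 11.9% lower. The median log2 fold change was -0.04 over the ER members and 0.34 over the cytosolic members, against a median of 0.00 over all genes (-0.000868). Of all 33 members this was 10 higher and 2 lower. PL libraries were sorted on days 4 and 5 and all PP libraries on day 5, and the split was 7 higher and 5 lower with sorting day in the fit and 7 higher and 6 lower with day 5 libraries only. Pdia3, Pdia4 and Pdia6 were called lower under both of these choices, and Ddit3 and Dnajb4 were called under neither. After repopulation (PBL against PBP), 7 ER members were higher and 9 lower, and 2 cytosolic members were higher and 3 lower, where 21.5% of all genes were higher and 21.5% lower. The medians were -0.24 over the ER members and -0.33 over the cytosolic members. In these bulk libraries, fewer cells of a type and less RNA per cell cannot be told apart.

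**Figure D1:**
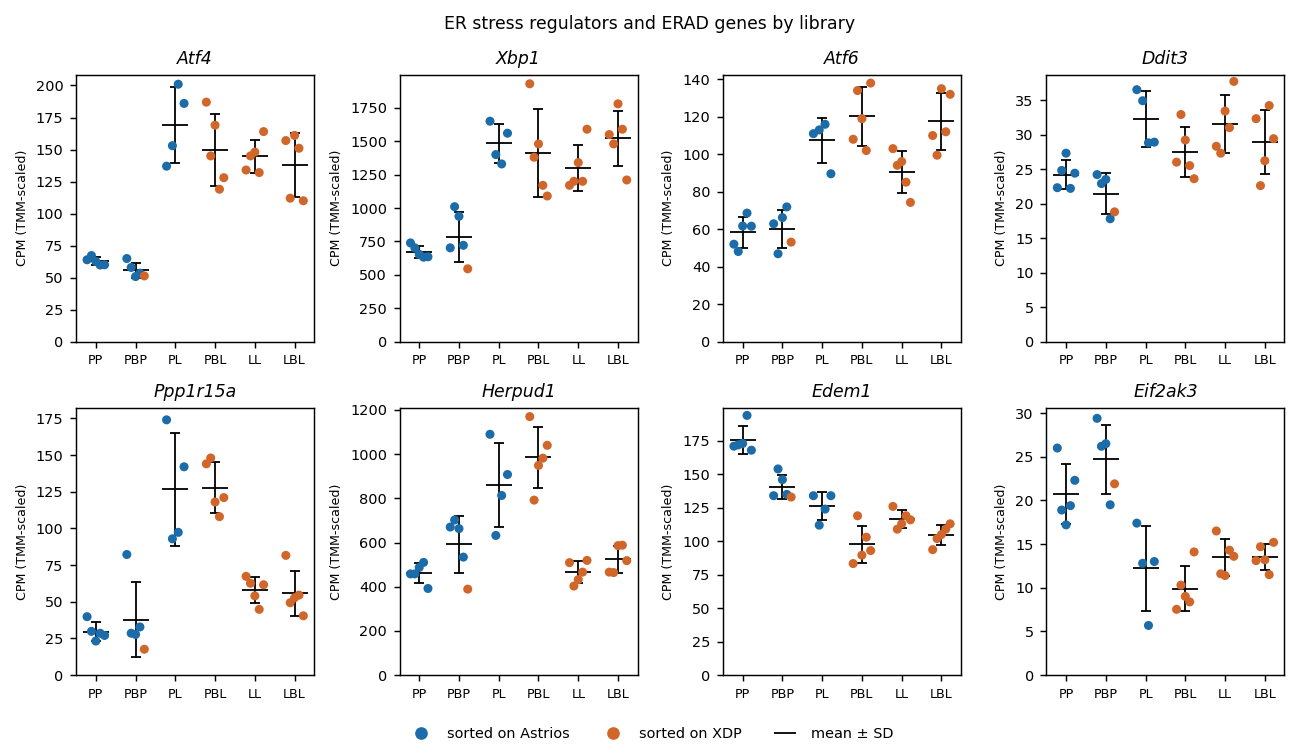
Level of 8 ER stress regulators and ERAD genes in every library (CPM, TMM-scaled; linear axes from 0), by group, with points coloured by sorter and bars for mean ± SD. Atf4, Xbp1 and Atf6 lie higher in all 4 LPS groups than in PP and PBP, whereas Herpud1 and Ppp1r15a are high in PL and PBL and lower in LL and LBL.

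Atf4, the transcription factor of the PERK branch, had the smallest p of the members in both arms. PP libraries had 63.9, 67.2, 62.6, 59.8 and 60 CPM, and PL libraries 137, 153, 201 and 186. PBP libraries had 64.9, 57.9, 50.8, 53.4 and 51.3 CPM, and PBL libraries 187, 145, 169, 119 and 128. Every LPS library was above every saline library. The log2 fold change was 1.43 ± 0.133 (SE; edgeR, adjusted p = 1.26e-10) in PL against PP and 1.43 ± 0.129 (adjusted p = 4.06e-11) in PBL against PBP. Its level stayed up after repeated LPS, with 134, 145, 148, 132 and 164 CPM in LL and 157, 112, 161, 151 and 110 in LBL. The difference of LL from PL was -0.23 (95% interval -0.49 to 0.03) and that of LBL from PBL -0.12 (-0.36 to 0.13), and neither was called.

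Xbp1, whose spliced mRNA encodes the transcription factor of the IRE1α branch, was also higher in LPS than in saline libraries. Its levels were 739, 702, 653, 632 and 635 CPM in PP and 1650, 1400, 1330 and 1560 in PL. In the depleted arm they were 702, 1010, 938, 721 and 545 CPM in PBP and 1930, 1380, 1480, 1170 and 1090 in PBL. Again no LPS library fell into the saline range, although PBP replicate 2 at 1010 CPM came close to the lowest PBL library. Xbp1 rose by 1.14 ± 0.145 on the log2 scale in PL (edgeR, adjusted p = 1.08e-07) and by 0.85 ± 0.138 in PBL (adjusted p = 6.31e-06). Repeated LPS gave 1170, 1200, 1340, 1200 and 1590 CPM in LL and 1550, 1480, 1780, 1590 and 1210 in LBL, and neither group differed from its single-LPS counterpart by the test (-0.19, interval -0.48 to 0.09; 0.11, interval -0.16 to 0.38).

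Of the sensors themselves, Atf6 rose while Eif2ak3 fell. Atf6 had 52, 48.1, 61.7, 68.6 and 61.6 CPM in PP and 111, 113, 116 and 89.6 in PL. It had 62.9, 46.9, 66.2, 71.9 and 53.1 CPM in PBP and 108, 134, 119, 102 and 138 in PBL. The groups did not overlap in either arm, and the log2 fold changes were 0.88 ± 0.132 (edgeR, adjusted p = 2.65e-06) and 1.00 ± 0.126 (adjusted p = 6.64e-08). LL libraries had 103, 94.1, 96.1, 85.1 and 74.3 CPM and LBL libraries 110, 99.5, 135, 112 and 132. These differ from PL by -0.25 (interval -0.50 to 0.01) and from PBL by -0.03 (-0.28 to 0.21), and neither difference was called.

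Eif2ak3, which encodes PERK, was low throughout. PP libraries had 26, 18.9, 17.2, 19.4 and 22.3 CPM and PL libraries 17.4, 12.8, 5.68 and 13. PBP libraries had 29.4, 26.2, 26.5, 19.5 and 21.9 CPM, and PBL libraries 7.53, 10.3, 9.01, 8.38 and 14.1. One PL library lay within the PP range, and all PBL libraries were below all PBP libraries. PL replicate 3, at 5.68 CPM, had the lowest RNA quality number (6.5) and RNA concentration (0.59 ng/ul) of all libraries. Eif2ak3 fell by 0.77 ± 0.221 on the log2 scale in PL (edgeR, adjusted p = 0.00872, lost at 0.0502 without PL replicate 3). In PBL it fell by 1.32 ± 0.211 (adjusted p = 4.89e-06). With 16.5, 11.6, 11.4, 14.3 and 13.6 CPM in LL and 13.1, 14.7, 13.2, 11.5 and 15.2 in LBL, it also stayed below the saline groups after repeated LPS. Ern1, which encodes IRE1α, was called in none of the comparisons. Its group means were 14.2 ± 3.58 CPM in PP, 12.2 ± 2.61 in PL, 15.8 ± 3.47 in PBP and 11.0 ± 2.76 in PBL (SD; n = 5, 4, 5 and 5).

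Ddit3, which encodes the pro-apoptotic factor CHOP and is a target of ATF4, rose little. Its means were 24.2 ± 2.12 CPM in PP and 32.3 ± 4.03 in PL (SD, n = 5 and 4), and 21.4 ± 2.93 in PBP and 27.4 ± 3.65 in PBL (SD, n = 5 each). The log2 fold changes of 0.41 ± 0.145 (edgeR, adjusted p = 0.032) and 0.35 ± 0.139 (adjusted p = 0.038) passed the threshold narrowly. In PL against PP, the call was lost with sorting day in the fit (0.25, adjusted p = 0.322) and without PP replicate 1 or 4 or PL replicate 1 or 2. In PBL against PBP it was lost without PBP replicate 4 or 5 or PBL replicate 2 or 3. That call was also lost with only the groups compared, with sorter or sorting day in the fit, and without PBP replicates 2 and 5. Neither call was kept with no filter on low counts.

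Ppp1r15a encodes GADD34, the phosphatase subunit that reverses eIF2α phosphorylation, and it had a larger response than the other called ER members of the undepleted arm. PP libraries had 39.8, 29.8, 23.2, 28.5 and 27 CPM, and PL libraries 174, 92.9, 97.3 and 142. PBP libraries had 82.2, 28.5, 27.7, 32.8 and 17.6 CPM, with replicate 1 far above the others, and PBL libraries had 144, 148, 118, 108 and 121. No saline library reached the LPS range. The gene rose 4.27-fold in PL (log2 2.09 ± 0.288, edgeR, adjusted p = 1.68e-06) and 3.37-fold in PBL (log2 1.75 ± 0.273, adjusted p = 7.56e-06). Repeated LPS gave lower values, 67.3, 62.6, 54, 44.8 and 61.6 CPM in LL and 81.6, 49.3, 52.7, 54.5 and 40.4 in LBL, all below every PL or PBL library. Ppp1r15a was 2.18-fold lower in LL than in PL (log2 -1.12 ± 0.279, edgeR, adjusted p = 0.023) and 2.30-fold lower in LBL than in PBL (log2 -1.20 ± 0.269, adjusted p = 0.00548). Against the saline group of its arm it was still higher in LL (0.97 ± 0.274, adjusted p = 0.00772), and in LBL the value was 0.55 ± 0.271 (adjusted p = 0.132).

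Trib3, an ATF4 and CHOP target that dampens their activity, was barely detected. Libraries had 0.124, 2.97, 1.01, 0.36 and 0.378 CPM in PP, 0.622, 1.07, 0.237 and 1.99 in PL, and 0.973, 1.29, 0.941, 0 and 0 in PBP. PBL libraries had 2.51, 0.711, 4.76, 2.17 and 3.69 CPM, LL libraries 2.34, 2.45, 3.34, 0 and 0, and LBL libraries 3.16, 4.47, 3.1, 3.22 and 4.19. PBL overlapped PBP, and LBL lay above PBP. Trib3 was called higher in PBL than in PBP (log2 2.10 ± 0.857, edgeR, adjusted p = 0.0464) and in LBL than in PBP (2.49 ± 0.852, adjusted p = 0.0269), and its value in PL against PP was 0.02 ± 0.914. The first of these calls was lost in 8 of the 10 fits that left out 1 library, for example without PBP replicate 5 (1.82, adjusted p = 0.0755), and the second without PBP replicate 4.

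Herpud1, an ER membrane protein that brings substrates to the ERAD ubiquitin ligase, rose after a first LPS injection. After a repeated one it lay near the level of the saline groups, most of whose libraries came from another sorter. PP libraries had 458, 458, 487, 510 and 392 CPM, PL libraries 1090, 632, 813 and 908, and LL libraries 509, 403, 432, 466 and 519. PBP libraries had 670, 702, 663, 534 and 389 CPM, PBL libraries 1170, 792, 949, 982 and 1040, and LBL libraries 466, 464, 586, 588 and 518. All single-LPS libraries were above the saline and the repeated-LPS libraries of their arm. Herpud1 rose by 0.90 ± 0.141 on the log2 scale in PL against PP (edgeR, adjusted p = 5.46e-06) and by 0.74 ± 0.134 in PBL against PBP (adjusted p = 3.42e-05). It was 1.85-fold lower in LL than in PL (log2 -0.89 ± 0.141, adjusted p = 0.000103) and 1.88-fold lower in LBL than in PBL (log2 -0.91 ± 0.135, adjusted p = 1.65e-05). Its mean was 466 ± 49.4 CPM in LL and 461 ± 44.3 in PP (SD, n = 5 each), a log2 difference of 0.02 with an interval of -0.25 to 0.28. All LL libraries were sorted on the XDP and all PP libraries on the Astrios. PBP replicate 5, the only saline library of the XDP, had 389 CPM, and all LBL libraries were above it. With sorter in the fit, a term that comes from that library, LL differed from PL by -0.16. The part of the sorter in the match of LL with PP was not tested.

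Edem1, which hands misfolded glycoproteins to ERAD, moved the other way. It had 171, 172, 173, 194 and 168 CPM in PP, and 134, 112, 124 and 134 in PL. In the depleted arm it had 134, 154, 146, 135 and 133 CPM in PBP and 83.3, 119, 89.6, 103 and 93 in PBL. In both arms all LPS libraries were below all saline libraries. Edem1 fell by 0.48 ± 0.0966 on the log2 scale in PL (edgeR, adjusted p = 0.000234) and by 0.53 ± 0.0912 in PBL (adjusted p = 1.68e-05). LL libraries had 126, 109, 113, 119 and 116 CPM and LBL libraries 93.7, 102, 105, 109 and 113, close to the single-LPS groups. It was also lower in PBL than in PL (-0.37 ± 0.0964, adjusted p = 0.00765). All PBP libraries were below all PP libraries, but that difference of -0.32 ± 0.0902 was not called (edgeR, adjusted p = 0.102), although DESeq2 did call it (adjusted p = 0.0235). Sel1l, the adaptor of the ERAD ligase, had means of 214 ± 16.6 CPM in PP, 189 ± 28.5 in PL, 241 ± 31.6 in PBP and 202 ± 18.8 in PBL (SD; n = 5, 4, 5 and 5), and the test called the last pair alone (-0.26 ± 0.099, edgeR, adjusted p = 0.0361), a call lost in 5 of the 10 fits that left out 1 library. That call was also lost with DESeq2's test or size factors.

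In the main fit, the ER chaperones and folding enzymes, including the 6 with an ERSE shown above, were called higher with LPS in neither arm. None of the 9 (Hspa5, Hsp90b1, Pdia3, Pdia4, Pdia6, Calr, Canx, Dnajb9 and Dnajc3) was called in PL against PP in the main fit. Hspa5 encodes BiP, the main HSP70 of the ER, and came nearest, with 2030 ± 220 CPM in PP and 2730 ± 609 in PL (SD, n = 5 and 4; log2 0.43 ± 0.164, edgeR, adjusted p = 0.0512). After repopulation its value was 0.05 ± 0.156. In PL against PP, 9 ER members in place of 8 were called with DESeq2's test or size factors. The same count came with Astrios libraries only, with only the groups compared, and with RNA quality or sorter in the fit. In each of these fits 11 of all members were higher in place of 10. The adjusted p of Hspa5 lies next to the threshold, so the lack of a call does not show an unchanged level. Calr, the lectin chaperone calreticulin, held between 892 and 1160 CPM in all 29 libraries.

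In PBL against PBP, 6 of these 9 were called lower. Dnajb9, a BiP co-chaperone, had 265, 301, 321, 234 and 168 CPM in PBP and 197, 154, 166, 124 and 126 in PBL, and fell by 0.75 ± 0.141 on the log2 scale (edgeR, adjusted p = 5.85e-05). Its other groups had 247, 221, 245, 224 and 199 CPM in PP, 247, 152, 180 and 193 in PL, 153, 145, 178, 176 and 192 in LL, and 157, 196, 166, 164 and 154 in LBL. Only PBP replicate 5 among the PBP libraries lay within the PBL range. Pdia4, a disulfide isomerase, had 294, 340, 291, 282 and 194 CPM in PBP and 222, 174, 186, 148 and 203 in PBL (-0.59 ± 0.135, adjusted p = 0.000672). Its values were 253, 246, 249, 294 and 205 CPM in PP, 264, 194, 161 and 177 in PL, 236, 189, 174, 193 and 194 in LL, and 191, 223, 234, 184 and 178 in LBL. Here too PBP replicate 5 was the only PBP library within the PBL range. The isomerases Pdia3 (-0.48 ± 0.119) and Pdia6 (-0.41 ± 0.113), the lectin chaperone Canx (-0.32 ± 0.116) and the ER HSP90 gene Hsp90b1 (-0.25 ± 0.0885) also fell, though the call of Canx was lost without PBP replicate 2 or 3 or PBL replicate 2, 4 or 5, and that of Hsp90b1 without PBP replicate 2 or 3 or PBL replicate 5. Both of these calls were also lost with DESeq2's test or size factors and with only the groups compared.

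Sorter and RNA quality differed along with LPS in this comparison. PBP replicate 5 was sorted on the same instrument and day as PBL, and against this library alone Pdia3 differed by -0.03, Pdia4 by -0.08 and Dnajb9 by -0.15 on the log2 scale. With libraries of the XDP only the saline arm is this 1 library, which the fit assumes to vary like the other groups, so these values are a description without a replicate check. In the same fit Atf4 was at 1.52, Atf6 at 1.16, Xbp1 at 1.35, Herpud1 at 1.32, Ppp1r15a at 2.84, Hsp90aa1 at 0.81, Hspa4 at 0.88 and Eif2ak3 at -1.17. The RNA quality number was 7.4 to 7.9 in PBL, 8.8 to 9 in 4 PBP libraries and 7.4 in PBP replicate 5. With this number in the fit, 9 members were higher and 5 lower in place of 9 and 12, and Pdia3, Pdia6, Canx, Hsp90b1, Sel1l, Hspa8 and Hspd1 were no longer called lower. Without PBP replicate 2, Dnajb9 was at -0.69 (adjusted p = 0.0004) and Pdia4 at -0.51 (adjusted p = 0.00437). In this comparison sorter and LPS nearly coincide, with 1 XDP library among PBP, and the part of the sorter and of RNA quality in the chaperone falls was not tested further.

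**Figure D2:**
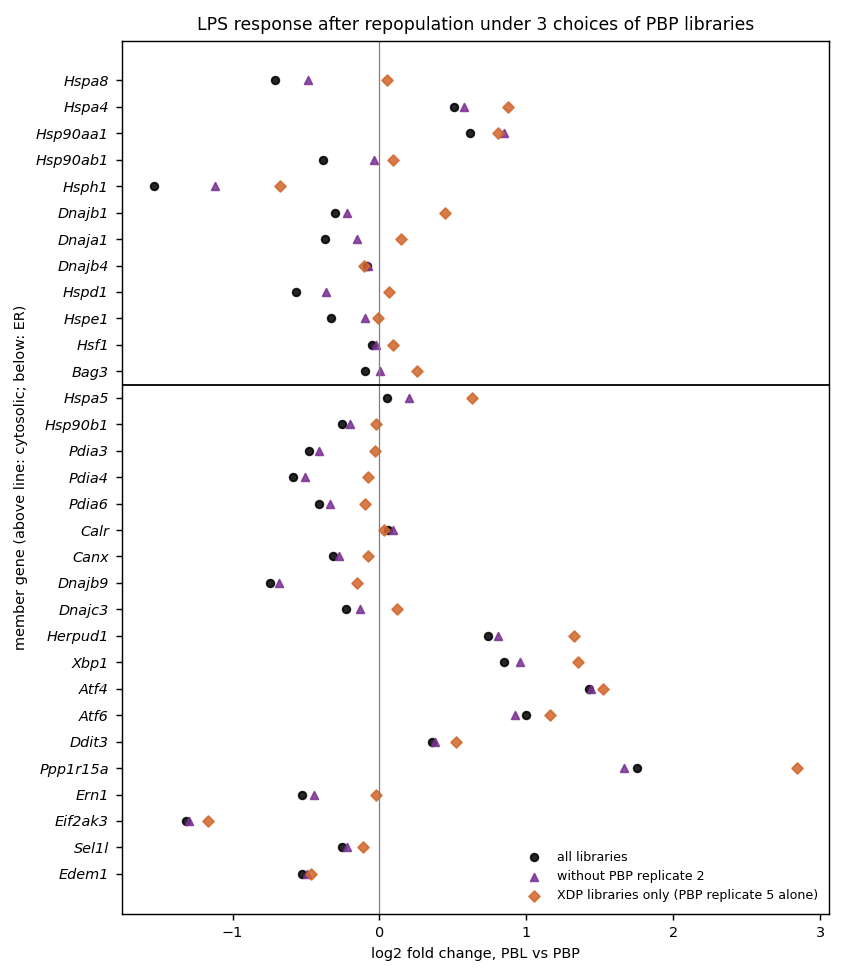
Log2 fold change of PBL against PBP for 31 tested members (Hspa1a and Trib3, at 0.777 and 0 CPM in PBP replicate 5, are left out), fitted with all libraries, without PBP replicate 2, and with XDP libraries only. Atf4, Xbp1, Atf6, Herpud1 and Ppp1r15a stay to the right of 0 under all 3 choices, whereas Hspa8, Hspd1, Pdia3, Pdia4 and Dnajb9 move to near 0 with XDP libraries only.

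Hsp90aa1, the inducible cytosolic HSP90, rose after a first LPS injection in both arms. Libraries had 47.3, 51.2, 52.8, 53.5 and 46.7 CPM in PP, and 103, 72.2, 108 and 103 in PL. They had 53, 97.5, 59.9, 42.7 and 52.7 CPM in PBP and 97.1, 79.6, 107, 99.2 and 84.8 in PBL. PL lay wholly above PP, and PBL lay above PBP except for PBP replicate 2 at 97.5. Hsp90aa1 rose by 0.95 ± 0.154 on the log2 scale (edgeR, adjusted p = 1.06e-05) and by 0.61 ± 0.147 (adjusted p = 0.001), or by 0.85 without PBP replicate 2. After repeated LPS it had 78.3, 65, 79.3, 75.5 and 81.9 CPM in LL and 60.4, 58.6, 74.2, 67.7 and 59.7 in LBL. All LBL libraries were below all PBL libraries (-0.54 ± 0.146, adjusted p = 0.0187), while LL overlapped PL through 1 low PL library (-0.35 ± 0.153, adjusted p = 0.244). The LBL call was lost without LBL replicate 2 (adjusted p = 0.0581), PBL replicate 3 (0.0569) or PBL replicate 4 (0.05). The constitutive HSP90 gene Hsp90ab1 was called in no comparison, with means from 908 ± 185 CPM in LBL to 1300 ± 653 in PBP (SD, n = 5 each).

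**Figure D3:**
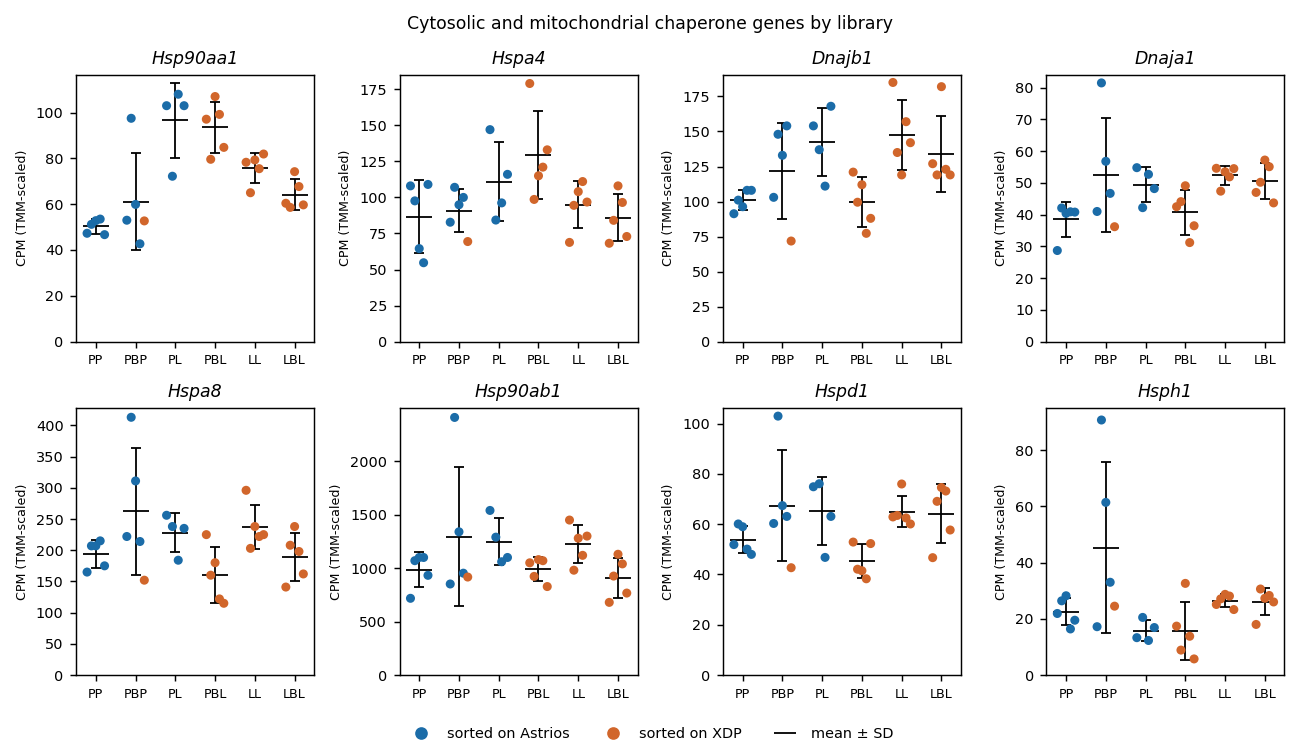
Level of 8 cytosolic and mitochondrial chaperone genes in every library (CPM, TMM-scaled; linear axes from 0), by group, with points coloured by sorter and bars for mean ± SD. PBP replicate 2 is the highest point of Hspa8 (413), Hsp90ab1 (2410), Hspd1 (103) and Hsph1 (90.7). PBP replicate 3 is the next highest of Hspa8 (311) and Hsph1 (61.4). Hsp90aa1 is higher in PL and PBL than in PP.

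HSP70 genes did not move as 1 group. Hspa1a, the classic heat-inducible HSP70, was near the detection limit, with 0.496, 0.27, 0.127, 0.6 and 0.378 CPM in PP and 1.62, 1.96, 1.07 and 4.9 in PL. It had 0.541, 19.9, 4.7, 1.97 and 0.777 CPM in PBP, 2.15, 7.11, 1.36, 2.33 and 4.64 in PBL, 4.23, 2.07, 1.36, 1.94 and 1.42 in LL, and 0.316, 3.01, 6.67, 0.574 and 2.17 in LBL. PP was low in all 5 libraries, at 15 counts in total, and the remaining groups were scattered. Hspa1a was called higher than PP in PL (log2 2.61 ± 0.883, edgeR, adjusted p = 0.0263), in LL (2.49 ± 0.852, adjusted p = 0.024) and in PBP (3.83 ± 0.844, adjusted p = 0.0239). The PBP call was lost without PBP replicate 2 (2.36, adjusted p = 0.187) and without any 1 of the 5 PP libraries. The LL call was lost without LL replicate 1 or PP replicate 2 or 3, and the PL call was lost without PL replicate 4 (1.97, adjusted p = 0.141), PP replicate 2 (2.52, 0.057) or PP replicate 3 (2.40, 0.0634). Hspa1a and Hspa1b are near-identical copies, so reads can be split between them, and calls for the summed pair were the same.

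Hspa8, the constitutive cytosolic HSP70, had 165, 207, 207, 215 and 175 CPM in PP, 256, 238, 184 and 235 in PL, and 222, 413, 311, 214 and 152 in PBP. PBL libraries had 225, 160, 180, 122 and 115 CPM, LL libraries 296, 203, 238, 222 and 225, and LBL libraries 141, 208, 238, 198 and 162. It was called in PBL against PBP alone, where the groups overlapped (-0.71 ± 0.195, edgeR, adjusted p = 0.00399). The value was -0.49 (adjusted p = 0.0274) without PBP replicate 2 and 0.05 with XDP libraries only, where PBP is 1 library. Hspa4, an HSP110-type exchange factor for HSP70, had 108, 97.6, 64.5, 54.7 and 109 CPM in PP, 147, 84.3, 96.2 and 116 in PL, and 82.8, 107, 94.9, 100 and 69.4 in PBP. PBL libraries had 179, 98.6, 115, 121 and 133 CPM, LL libraries 68.8, 94.5, 104, 111 and 96.8, and LBL libraries 68.2, 84.1, 108, 96.5 and 72.9. Hspa4 was higher in PBL than in PBP (0.51 ± 0.182, adjusted p = 0.0237, lost without PBP replicate 1 or 5 or PBL replicate 1) and lower in LBL than in PBL (-0.59 ± 0.183, adjusted p = 0.0438). The latter call was lost in 7 of the 10 fits that left out 1 library (adjusted p up to 0.139).

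Hsph1, the second HSP110 member, went down with LPS after repopulation. PBP libraries had 17.2, 90.7, 61.4, 33 and 24.5 CPM and PBL libraries 17.4, 8.88, 32.6, 13.8 and 5.74, which overlap. PP libraries had 21.9, 26.4, 28.2, 16.4 and 19.5 CPM, PL libraries 13.3, 20.5, 12.3 and 16.9, LL libraries 25.1, 27.1, 28.7, 28.1 and 23.3, and LBL libraries 18, 30.6, 27.3, 28.3 and 26. The fall was 1.54 ± 0.364 on the log2 scale (edgeR, adjusted p = 0.00123), or -1.12 (adjusted p = 0.00737) without PBP replicate 2, and -0.68 with XDP libraries only, where PBP is 1 library. In the undepleted arm its value was -0.52 ± 0.386 and not called.

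Of the HSP40 co-chaperones, Dnajb1 and Dnajb4 rose in the undepleted arm. Dnajb1 had 91.3, 101, 96.3, 108 and 108 CPM in PP and 154, 137, 111 and 168 in PL, with no overlap (0.50 ± 0.169, edgeR, adjusted p = 0.026). It had 103, 148, 133, 154 and 71.8 CPM in PBP, 121, 99.5, 112, 77.3 and 88 in PBL, 185, 135, 119, 157 and 142 in LL, and 127, 119, 182, 123 and 119 in LBL. LL was also above PP (0.55 ± 0.16, edgeR, adjusted p = 0.00861), whereas PBL was below PL (-0.52 ± 0.169, adjusted p = 0.0263). The call in PBL against PL was kept in 5 of the 9 fits that left out 1 library. Dnajb4 had 18.2, 24, 25.1, 29 and 31.6 CPM in PP, 49.8, 27.6, 41.2 and 29.2 in PL, and 18.6, 30.1, 31.2, 38 and 29.5 in PBP. PBL libraries had 31.9, 20.2, 25.2, 33.7 and 28 CPM, LL libraries 25.8, 28.5, 34.4, 35.8 and 30, and LBL libraries 31.7, 32.2, 28.4, 23.3 and 30.1. PL overlapped PP (0.53 ± 0.188, adjusted p = 0.033). Both PL calls were lost without PL replicate 1 (adjusted p = 0.0729 for Dnajb1 and 0.221 for Dnajb4) and without PP replicates 1 or 3, that of Dnajb1 also without PL replicate 4, and that of Dnajb4 also without PL replicate 3 or PP replicate 2. With sorting day in the fit the values were 0.47 for Dnajb1 (adjusted p = 0.0545) and 0.46 for Dnajb4 (0.161), with the replicate block 0.44 for Dnajb1 (0.0522), and with day 5 libraries only 0.48 for Dnajb4 (0.112). Dnaja1 had 38.6 ± 5.53 CPM in PP and 52.4 ± 3.0 in LL (SD, n = 5 each; 0.44 ± 0.157, edgeR, adjusted p = 0.0296), a call lost without PP replicate 1, LL replicate 1 or LL replicate 5.

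The mitochondrial chaperonin genes Hspd1 (HSP60) and Hspe1 (HSP10), which share the promoter stretch shown above, were called differently. Hspd1 had 51.9, 60.1, 59, 50.1 and 48 CPM in PP, 74.9, 76.1, 46.8 and 63.1 in PL, and 60.3, 103, 67.4, 63.1 and 42.7 in PBP. PBL libraries had 52.9, 42.1, 41.5, 38.3 and 52.3 CPM, LL libraries 62.9, 63.5, 76, 62.5 and 60.1, and LBL libraries 46.7, 69.1, 74.6, 73.2 and 57.7. PBL was low, although PBP replicate 5 at 42.7 fell within its range. Hspd1 fell by 0.57 ± 0.165 in PBL against PBP (edgeR, adjusted p = 0.00576), a call lost without PBP replicate 2 (-0.36, adjusted p = 0.0564). It fell by 0.52 ± 0.174 in PBL against PL (adjusted p = 0.0311), a call kept in 3 of the 9 fits that left out 1 library. Hspe1 had means between 15.9 ± 0.734 CPM in PP and 20.7 ± 7.08 in PBP (SD, n = 5 each) and was called in no comparison. Hsf1, the heat shock transcription factor, and Bag3, an HSP70 co-factor in selective autophagy, were called in no comparison either. Hsf1 means lay between 60.0 ± 11.7 CPM in PL and 70.9 ± 7.15 in LBL (SD, n = 4 and 5).

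**Figure D4:**
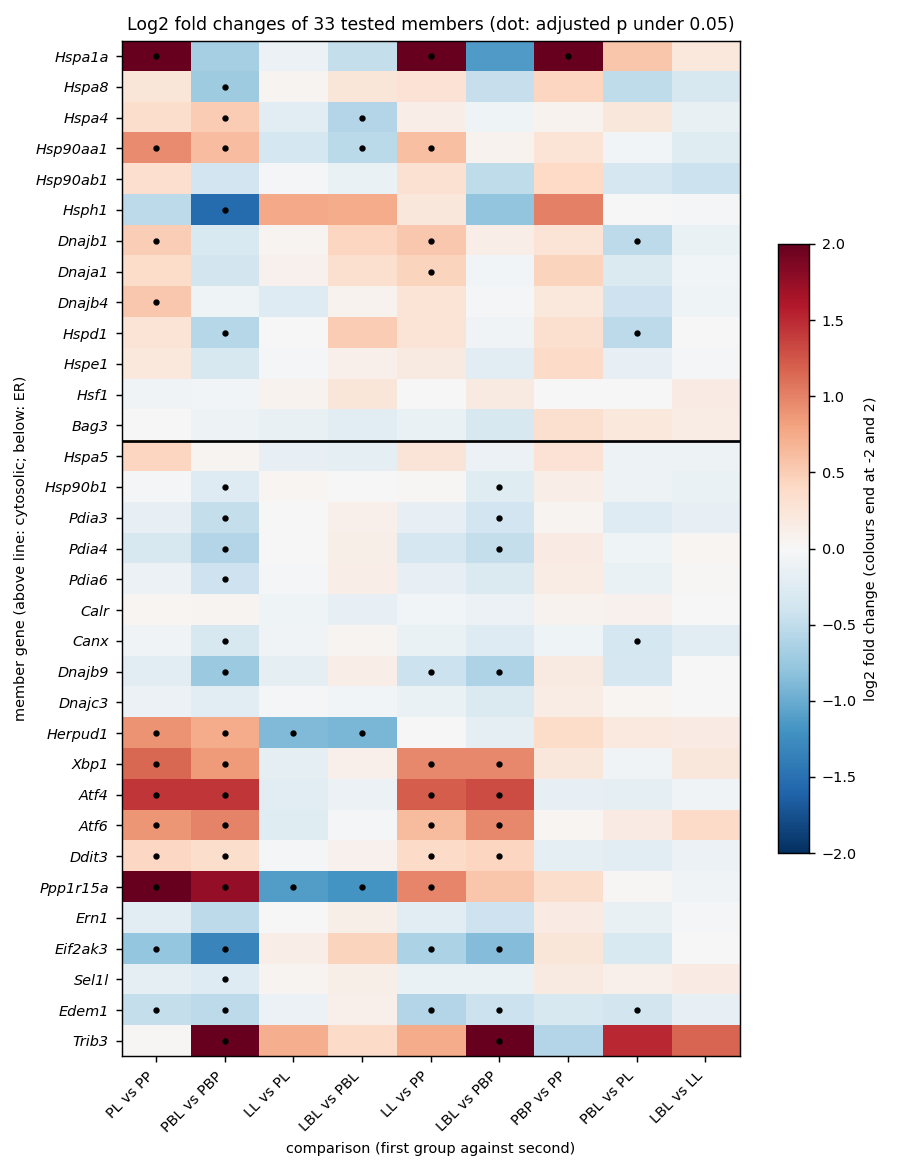
Log2 fold changes of the 33 tested members (rows; cytosolic above the line, ER below) in 9 comparisons (columns), coloured from -2 to 2, with a dot where edgeR's adjusted p was under 0.05. Atf4, Xbp1 and Atf6 are red and dotted in the 4 comparisons of an LPS group with its saline group, and Herpud1 and Ppp1r15a are blue and dotted in both comparisons of repeated with single LPS.

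An earlier LPS injection, given 5 weeks before, was followed by few calls against single LPS 3 h after the second injection. In LL against PL, 0 of 13 cytosolic members were called and 2 of 20 ER members were lower, where 0.752% of all tested genes were higher and 2.03% lower. In LBL against PBL, 2 cytosolic and 2 ER members were lower and 0 higher, where 2.74% of genes were higher and 4.00% lower. Herpud1 and Ppp1r15a were the ER members called in both, and Hsp90aa1 and Hspa4 the cytosolic members called after repopulation. Absence of a call does not show equal levels. For Hsph1 every LL library was above every PL library (0.75 ± 0.386, edgeR, adjusted p = 0.342), and in LBL against PBL the values were 0.50 ± 0.165 for Hspd1 (adjusted p = 0.0613) and 0.43 ± 0.161 for Dnajb1 (adjusted p = 0.108). Both Herpud1 and Ppp1r15a responses to an earlier injection were tested for a difference between the arms, and the log2 differences were -0.03 (95% interval -0.41 to 0.36) and -0.08 (-0.84 to 0.68). No member was called for this difference of arms, where 0.0120% of all genes were higher and 0.0120% lower (nominal p under 0.05 in 1 member; 0 members called by DESeq2 or limma voom). PL was sorted on the Astrios and LL on the XDP, and with sorter in the fit the LL values were -0.16 for Herpud1 (adjusted p = 0.821) and 0.17 for Ppp1r15a (adjusted p = 0.933). That sorter term comes from PBP replicate 5 against the other PBP libraries only. LBL and PBL were all sorted on the XDP, on different days, and with XDP libraries alone the values were -0.90 for Herpud1 (adjusted p = 2.39e-06) and -1.20 for Ppp1r15a (adjusted p = 9.83e-06). Ppp1r15a in LL against PL was also lost without LL replicate 3 (adjusted p = 0.052), LL replicate 4 (0.0678), PL replicate 1 (0.122) or PL replicate 4 (0.0791), with values between -1.11 and -0.91. Immediate early genes moved alongside, 3 of 14 tested being lower in LL than in PL and 5 of 14 lower in LBL than in PBL, and their part in these results was not tested.

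Some members also differed from saline after repeated LPS. In LL against PP, 4 cytosolic members were higher and 0 lower, and 5 ER members were higher and 3 lower, where 18.9% of all genes were higher and 13.2% lower. The ER members that rose were Atf4 (1.21 ± 0.127), Xbp1 (0.95 ± 0.138), Atf6 (0.63 ± 0.125), Ppp1r15a and Ddit3 (0.38 ± 0.137), and Edem1 (-0.59 ± 0.0906), Eif2ak3 (-0.63 ± 0.205) and Dnajb9 (-0.43 ± 0.14) fell. All LL libraries were sorted on the XDP and all PP libraries on the Astrios. With sorter in the fit, a term that comes from PBP replicate 5 only, 9 members were higher and 0 lower in place of 9 and 3, and Edem1, Eif2ak3, Dnajb9, Hsp90aa1, Hspa1a and Ddit3 were no longer called. With RNA quality in the fit 12 were higher and 1 lower. In LBL against PBP, 0 cytosolic members were called, and 5 ER members were higher and 6 lower, where 14.6% of genes were higher and 13.6% lower. Atf4 (1.31 ± 0.128), Atf6 (0.96 ± 0.125), Xbp1 (0.96 ± 0.138), Ddit3 (0.43 ± 0.138) and Trib3 rose, and Eif2ak3 (-0.87 ± 0.205), Dnajb9 (-0.62 ± 0.141), Pdia4 (-0.47 ± 0.135), Edem1 (-0.43 ± 0.0908), Pdia3 (-0.39 ± 0.118) and Hsp90b1 (-0.25 ± 0.0885) fell. The call of Hsp90b1 in LBL against PBP was lost with DESeq2's test or size factors. It was kept in 4 of the 10 fits that left out 1 library. With XDP libraries only, where PBP is 1 library assumed to vary like the other groups, 5 members were called there and all were higher. These comparisons share their saline and repeated-LPS libraries with those above.

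Few members were called between depleted and undepleted mice under the same injections. In PBP against PP, Hspa1a alone was higher, where 0.289% of all genes were higher and 0.241% lower. In PBL against PL, Dnajb1, Hspd1, Canx (-0.35 ± 0.123) and Edem1 were lower and 0 members higher, where 11.0% of genes were higher and 11.1% lower. With sorter in the fit 0 members were called there. Of the 9 fits that left out 1 library, Canx kept its call in 2, Hspd1 in 3, Dnajb1 in 5 and Edem1 in 9. Of the 9 other alternatives, Canx kept its call in 1, Hspd1 and Dnajb1 in 5 each and Edem1 in 6. In LBL against LL no member was called, where 0.487% of genes were higher and 0.722% lower. There 1 cytosolic and 1 ER member had an unadjusted p under 0.05, and limma voom called 0 members. Atf6 was nearest, at 0.38 ± 0.124 (edgeR, adjusted p = 0.141), and DESeq2 called it (adjusted p = 0.0389).

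The difference between the 2 arms in the first LPS response pointed downwards for most cytosolic members. It was computed as PBL minus PBP against PL minus PP, and no gene of all 16632 was called (0% higher, 0% lower; 2120 genes at an unadjusted p under 0.05; DESeq2 called 51 and limma voom 0, with 0 members by either). The median over the 13 cytosolic members was -0.73 and over the 20 ER members -0.25, against -0.04 over all genes. Unadjusted p-values under 0.05 were found for 8 cytosolic members and 1 ER member. Hspd1 had -0.84 ± 0.238 (edgeR, adjusted p = 0.172), Hspa8 -0.95 ± 0.283 (0.187), Dnajb1 -0.80 ± 0.233 (0.187) and Dnaja1 -0.73 ± 0.229 (0.209). Leaving out PBP replicate 5, the library sorted with PBL, gave calls for Dnajb1 (-0.97, adjusted p = 0.011), Hspd1 (-0.99, 0.0132), Hspa8 (-1.12, 0.016), Dnaja1 (-0.86, 0.0243) and Dnajb9 (-0.66, 0.0343). Without PBP replicates 2 and 5, an alternative added after the data were seen, Dnajb1, Hspa8 and Hspd1 were called. Leaving out PBP replicate 2, or any 1 library other than PBP replicate 5, gave 0 member calls. All PBL libraries were sorted on the XDP and all PP and PL libraries on the Astrios. Without PBP replicate 5, sorter and LPS fully coincide in the depleted arm. With sorter in the fit 0 members were called for the difference. In PBL against PBP, that fit put Hspa8 at 0.08 and Hspd1 at 0.09 in place of -0.71 and -0.57. The part of the sorter in the difference was not tested. Among the ER members called in both arms, the difference was -0.01 (95% interval -0.37 to 0.36) for Atf4, 0.12 (-0.24 to 0.48) for Atf6, -0.06 (-0.45 to 0.34) for Ddit3 and -0.05 (-0.31 to 0.21) for Edem1. It was -0.16 (-0.54 to 0.22) for Herpud1, -0.30 (-0.69 to 0.09) for Xbp1, -0.34 (-1.11 to 0.42) for Ppp1r15a and -0.55 (-1.14 to 0.04) for Eif2ak3.

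**Figure D5:**
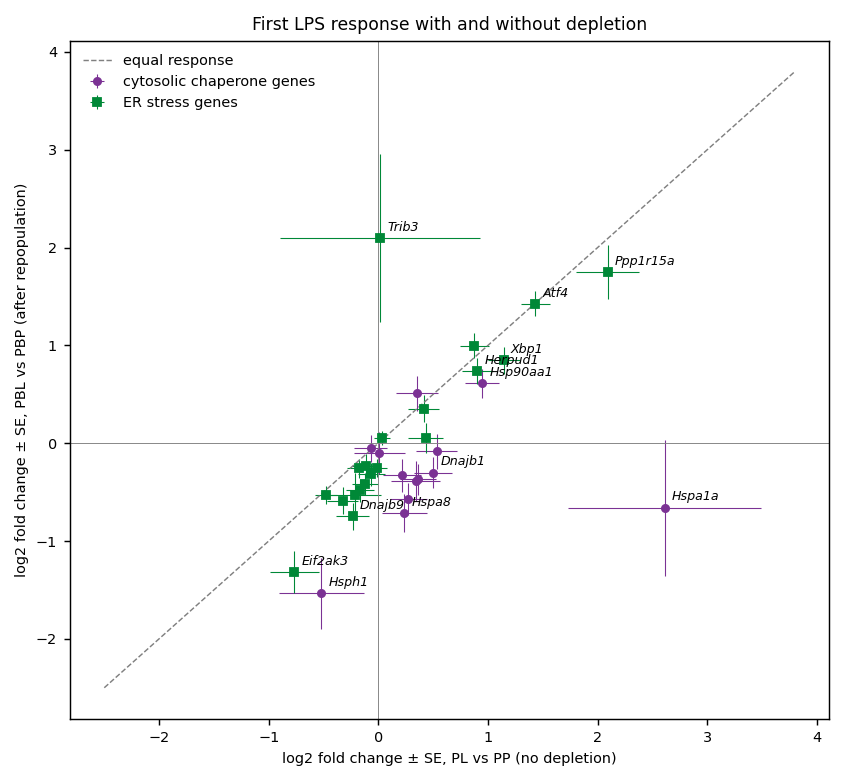
First LPS response of each tested member without depletion (PL against PP, horizontal) and after repopulation (PBL against PBP, vertical), as log2 fold change ± SE, with the line of equal response dashed. Atf4 and Herpud1 lie near the line, and Hspa1a, Hspa8, Dnajb1 and most other cytosolic genes lie below it.

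Other genes of the ATF4 branch and of ER folding were counted against all tested genes, of which 14.2% were higher and 11.9% lower in PL against PP and 21.5% each way in PBL against PBP. The list of ATF4 and CHOP target genes also held Ppp1r15b and eIF2α kinase genes, so its counts are not of ATF4 targets alone. Of its 28 tested genes, 14 were higher and 3 lower in PL against PP, and 16 higher and 4 lower in PBL against PBP. They were led by the glutathione-degrading enzyme gene Chac1 (3.34 ± 0.732 and 4.43 ± 0.742), the cystine transporter Slc7a11 (3.16 ± 0.491 and 4.59 ± 0.487) and the cationic amino acid transporter Slc7a1 (2.66 ± 0.227 and 3.58 ± 0.225). Slc7a11 was lower after an earlier injection, at -1.84 ± 0.449 (edgeR, adjusted p = 0.0177) in LL against PL and -2.83 ± 0.434 (adjusted p = 4.83e-05) in LBL against PBL. Ppp1r15b, the constitutive counterpart of Ppp1r15a, was lower in LL than in PL (-0.60 ± 0.102, edgeR, adjusted p = 0.000236). Of 39 other ER folding and ERAD genes, 2 were higher and 1 lower in PL against PP, and 2 higher and 12 lower in PBL against PBP. The latter included the ER stress chaperone cofactors Creld2 (-0.70 ± 0.151) and Sdf2l1 (-0.65 ± 0.117). In LL against PL 0 of them were called, where 2.03% of all genes were lower, and in LBL against PBL 1 was, Ubxn4 (-0.37 ± 0.0923), where 4.00% were lower. All PL and most PBP libraries were sorted on the Astrios, and all LL and PBL libraries on the XDP. The part of the sorter in LL against PL and in PBL against PBP was not tested for these lists.

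Cytosolic folding genes outside the member list were counted in both arms, where 14.2% of all genes were higher and 11.9% lower in PL against PP and 21.5% each way in PBL against PBP. Of 35 tested heat shock and co-chaperone genes, 7 were higher and 1 lower in PL against PP, and 5 higher and 10 lower in PBL against PBP. Ier5, an HSF1 co-activator, rose in both (2.22 ± 0.193 and 2.10 ± 0.186), and the HSP90 co-chaperone Fkbp4 fell in both (-0.51 ± 0.167 and -1.15 ± 0.159). Of the 8 subunits of the cytosolic chaperonin TRiC, 4 were higher in PL against PP, with Cct2 at 0.60 ± 0.125 and Tcp1 at 0.50 ± 0.115, and 3 were lower in PBL against PBP, with Cct7 at -0.59 ± 0.113 and Cct4 at -0.52 ± 0.132. In PBL against PL, 7 of the 8 were lower, where 11.0% of all genes were higher and 11.1% lower. All PBL libraries were sorted on the XDP and all PL libraries on the Astrios. For the difference between the arms in the first response, 0 of the 35 and 0 of the 8 were called. The falls in PBL against PBP and against PL go along with a difference in sorter, whose part was not tested for these lists.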

How the data were processed

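Microglial RNA was sequenced from 29 libraries in 6 groups. The deposited values are raw counts of reads for each gene, in whole numbers. The submitters' processing notes name HTSeq 0.11.0, Picard 2.13.2, TopHat, SAMtools 1.10, FastQC 0.11.9 and cutadapt 2.10, in no stated order, and GRCm39 as the build. For annotation release and strand setting, nothing was given in these sources, so overlapping antisense reads cannot be told apart. The deposited sample table adds sorter, sorting day and an RNA quality number, a score recorded by the authors.

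Genes were filtered with filterByExpr (16632 kept), scaled by TMM and tested in edgeR 4.0.16 (R 4.3.3) with a robust quasi-likelihood model, 1 coefficient per group and 23 residual degrees of freedom. Two-sided p-values were adjusted by Benjamini-Hochberg over all genes of a comparison, and genes under 0.05 were called. SE is the log2 fold change divided by the square root of F. Intervals are 95%. The script was tested on simulated data. Every library pair of a group differed by more than sampling noise (56 pairs, chi-square per degree of freedom 5.47 to 32.45). Gene symbols and Ensembl identifiers are those of the table, and 1323 of its rows had no Ensembl identifier. Promoter windows and 6 older gene symbols came from RefSeq tables of GRCm38.p6, whose coordinates were not mixed with the counts.

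Alternatives were DESeq2 1.42.0 (test and size factors), limma voom 3.58.1, no filter, only the groups compared, a replicate block, sorter, sorting day or RNA quality in the fit, single sorters or days, and leaving out each library. The replicate numbers did not pair libraries (correlation of deviations for 70 same-number pairs -0.311 to 0.369, median 0.01). Values in every library are given for members called in at least 1 of the 4 comparisons of first or earlier LPS, up to 10 per set by size of change, and up to 4 called genes per pathway list are named. Members and lists were chosen with earlier results of these data known.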

Additional observations from a re-analysis of the deposited data

Results flagged for a closer look

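Single libraries far from the rest of their group were found in 12 of 198 groups of 4 or 5 values, where chance flags about 1 in 20 groups. PBP replicate 2 was high in Hspa1a (19.9 CPM against 0.541 to 4.7 in the other PBP libraries) and Hspe1 (33 against 16.1 to 20.2). PBP replicate 1 was high in Ppp1r15a (82.2 against 17.6 to 32.8). PL replicate 2 was low in Hsp90aa1 (72.2 against 103 to 108). In PP, replicate 1 was low in Dnaja1 (28.7 against 40.4 to 42.1) and replicate 4 high in Edem1 (194 against 168 to 173). Among LL libraries, replicate 1 was high in Hspa1a (4.23 against 1.36 to 2.07), replicate 3 high in Hspd1 (76 against 60.1 to 63.5) and replicate 2 low in Hspe1 (14.2 against 18.2 to 19.8). Among LBL libraries, replicate 3 was high in Dnajb1 (182 against 119 to 127), replicate 2 high in Dnajb9 (196 against 154 to 166) and replicate 1 low in Pdia6 (567 against 672 to 711).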

How the results depend on the processing

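Of the member calls, 7 of 12 in PL against PP, 6 of 21 in PBL against PBP, 2 of 4 in LBL against PBL and 0 of 2 in LL against PL were kept under every alternative and every left-out library; Atf4, Atf6 and Xbp1 were kept so in all 4 comparisons of LPS with saline. With sorter in the fit, members called were 8 in PBL against PBP, 0 in LL against PL, 5 in LBL against PBP and 0 in PBL against PL; with sorting day they were 8 in PBL against PBP, 0 in PBP against PP and 0 in PBL against PL. XDP libraries alone gave 8 in PBL against PBP and 5 in LBL against PBP, and day 3 alone 8. No filter gave 1 in LL against PL and 0 in PBP against PP, limma voom and the 2 groups alone 0 in PBP against PP, and DESeq2 2 in PBP against PP and 1 in LBL against LL. RNA quality in the fit gave 1 in PBL against PL. The replicate block, whose numbers do not pair libraries, gave 0 in PBP against PP and 1 in PBL against PL and kept 61 of 67 gene calls. Leaving out 1 library gave 1 to 2 members in LL against PL, 2 to 4 in LBL against PBL, 9 to 17 in LBL against PBP, 0 to 1 in PBP against PP, 1 to 7 in PBL against PL and 0 to 5 for the difference of the arms in the first response. Without PBP replicates 2 and 5, chosen after seeing the data, this difference had 3 calls and PBP against PP 0. Reversals came only with the sorter or day held: in PBL against PBP, Hspa8 went to 0.0798 (day 3), 0.0515 (XDP), 0.0752 (sorter) and 0.0751 (day), Hspd1 to 0.0937, 0.0669, 0.0889 and 0.0889, and Hsp90b1 to 9.43e-06 (day 3); in PBL against PL, Dnajb1 went to 0.39 (sorter) and 0.36 (day) and Hspd1 to 0.26 and 0.0477; in LBL against PBP, Pdia3 went to 0.0719 (XDP) and 0.0861 (sorter), Pdia4 to 0.0475 and 0.0614, and Hsp90b1 to 0.0034 (sorter); Dnajb9 in LL against PP went to 0.31 and Ppp1r15a in LL against PL to 0.17 (sorter). These fits rest on PBP replicate 5 as the only XDP saline library, and the cause was not tested. Depth limits Hspa1a, Hspa1b, Hspb1 and Trib3, which had few counts.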
